A study of Mus musculus with 37 samples.

Results

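Solute carriers are membrane proteins that move amino acids, sugars, metals, inorganic ions, nucleosides, vitamins and other small molecules across the plasma membrane or the membranes of organelles. Most of their genes carry the symbol Slc, a family number, the letter a and a member number. Family 25 holds the carriers of the mitochondrial inner membrane. In macrophages the family is known for handling iron, heme and zinc and for the nutrient supply of activated cells, and in fibroblasts for the amino acids used to make collagen. Solute carrier genes with other symbols, such as the Slco genes, were not taken. The genes described were those whose symbol follows the pattern above in both tables of raw counts, 167 in all. Of these, the 4 genes Slc2a1, Slc16a3, Slc40a1 and Slc11a1 were left out. The 163 that remain were members of a table of 11447 genes shared by macrophages and fibroblasts. They were sorted by textbook substrate into 36 mitochondrial carriers, 31 carriers of amino acids, small peptides and amino acid derivatives, 25 of inorganic ions, 19 of metals, 11 of vitamins and cofactors, 9 of sugars, 5 of nucleotide sugars, 4 of nucleosides and nucleobases, 3 of monocarboxylates and 20 of other substrates.

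RNA from cultured cells of BALB/c mice aged 8 weeks was sequenced from the 3′ ends of polyadenylated transcripts, in bulk. Macrophages were grown from bone marrow in medium conditioned by L929 cells, a line that secretes a macrophage growth factor, and 4 libraries were taken at day 0. Another 4 each came from macrophages kept for 7 days with fibroblasts of mesometrial fat, lung or mammary fat pad, in medium for which no L929 supplement is named. Fibroblasts were expanded in culture and depleted of EpCAM+ and CD45+ cells. They were grown for 7 days alone (mono-culture, 2 fat, 3 lung and 5 mammary libraries) or with macrophages (co-culture, 3 fat, 3 lung and 5 mammary libraries). Macrophages were sorted live as F4/80+ CD11b+ and fibroblasts as F4/80- CD11b-, and cells of 2 females made up each fat or mammary fibroblast replicate. Day 0 and co-cultured macrophages therefore differ at the same time in partner, days in culture and medium, and these cannot be told apart. All macrophage comparisons with day 0 share the same 4 control libraries.

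The counts of a macrophage library summed to 3040103 to 6223115 and those of a fibroblast library to 3304605 to 7487355, and 3 counts in a library corresponded to between 0.389 and 0.975 CPM, the count scaled to a common library size. The 15 macrophage markers summed to 47718 to 67956 CPM in macrophage libraries, and the 15 fibroblast markers to 23173 to 65769 CPM in fibroblast libraries. Fibroblast markers in the macrophage gate summed to 7.65 to 21.5 CPM at day 0 and 211 to 694 CPM after co-culture (13 of 15 markers are in the table). Macrophage markers in fibroblasts ran from 33.6 to 733 CPM in mono-culture and from 508 to 2935 CPM in co-culture (14 of 15 in the table). From the rise of such markers over the control, added fibroblast RNA was estimated at a mean of 0.745% to 1.32% of co-cultured macrophage libraries. Added macrophage RNA was estimated at 1.21% to 2.33% of co-cultured fibroblast libraries. The marker level already present in mono-culture is not counted in these shares. A member is called partner-rich where the co-cultured partner held over 5 times its control mean. The library titled lung mono-culture 3 carries a tissue label of mammary fat pad. Over all genes tested it correlated at 0.967 to 0.969 with the other 2 lung mono-cultures and at 0.805 to 0.833 with the 5 mammary ones, and it was kept under its title. Fat and lung fibroblast libraries held 759 to 2519 CPM of 5 mesothelial markers and 78.2 to 302 CPM of 5 epithelial markers (3 in the table), against 30.7 to 138 and at most 2.91 CPM in mammary fibroblasts. The 5 endothelial markers, all in the fibroblast table, summed to 132 to 211 CPM in fat, 38.2 to 51.6 CPM in lung and 11.4 to 20.6 CPM in mammary mono-cultures. In co-cultures they summed to 38.5 to 89.6, 31.8 to 42.7 and 8.33 to 35.7 CPM. In bulk RNA, fewer cells of a type and less RNA per cell cannot be told apart.

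Promoter windows of 250 bases before to 50 bases after a gene's start (RefSeq, GRCm38.p6) were found for 119 of the 163 members. They were searched on both strands for the letters of 3 response elements through which amino acid shortage, metals and oxidants are known to act on genes, and a tonicity-responsive enhancer was added after expression values had been seen. The amino acid response element, searched as TGATGNAA, occurred in 3.97% of 32851 windows of all genes and 4.82% of the members' windows. Among amino acid carriers it occurred in 4 of 34 windows (11.8%). These 4 belong to Slc1a4, Slc7a11 and, with 2 of its 5 windows, Slc7a7. The metal response element, searched as TGCNCNC, occurred in 51% of all windows and 54.8% of the members' windows. Among metal carriers it occurred in 12 of 18 windows (66.7%). The antioxidant response element, TGACNNNGC, occurred in 12.4% of all windows and 21.7% of the members' windows. The tonicity-responsive enhancer occurred in 4.96% of all windows and 1.81% of the members' windows. These 3 windows belong to Slc29a1, Slc38a6 and Slc6a12. The window of the osmolyte carrier Slc5a3 held no match to it. Some genes have several windows, and a match is a description of letters, not a site shown to be used. The following windows, printed 5′ to 3′ on the gene's strand with matches in capitals, belong to 4 genes whose values are described here. They were picked from those with a match, after the search.
Slc1a4 (amino acid response element on the opposite strand, chr11:20332664-20332963, minus strand): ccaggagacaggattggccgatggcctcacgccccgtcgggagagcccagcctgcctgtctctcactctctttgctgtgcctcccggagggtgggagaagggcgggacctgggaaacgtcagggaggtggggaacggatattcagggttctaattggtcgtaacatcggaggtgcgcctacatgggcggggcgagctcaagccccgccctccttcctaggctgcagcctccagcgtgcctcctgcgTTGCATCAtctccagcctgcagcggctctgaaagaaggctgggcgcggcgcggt
Slc7a7 (amino acid response element, chr14:54417895-54418194, minus strand): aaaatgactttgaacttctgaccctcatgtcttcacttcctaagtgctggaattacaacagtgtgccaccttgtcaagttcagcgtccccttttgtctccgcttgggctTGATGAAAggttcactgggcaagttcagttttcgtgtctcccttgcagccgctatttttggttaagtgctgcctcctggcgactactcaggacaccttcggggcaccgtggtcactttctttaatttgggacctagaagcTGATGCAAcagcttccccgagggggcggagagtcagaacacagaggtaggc
Slc30a1 (metal response element on the opposite strand, chr1:191906531-191906830, plus strand): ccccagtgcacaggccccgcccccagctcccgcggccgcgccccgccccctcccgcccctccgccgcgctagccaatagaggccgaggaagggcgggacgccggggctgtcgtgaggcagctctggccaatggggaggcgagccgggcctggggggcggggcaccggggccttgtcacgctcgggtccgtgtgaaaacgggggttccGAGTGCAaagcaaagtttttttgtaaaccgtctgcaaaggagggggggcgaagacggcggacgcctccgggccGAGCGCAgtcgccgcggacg
Slc6a12 (tonicity-responsive enhancer, chr6:121342324-121342623, plus strand): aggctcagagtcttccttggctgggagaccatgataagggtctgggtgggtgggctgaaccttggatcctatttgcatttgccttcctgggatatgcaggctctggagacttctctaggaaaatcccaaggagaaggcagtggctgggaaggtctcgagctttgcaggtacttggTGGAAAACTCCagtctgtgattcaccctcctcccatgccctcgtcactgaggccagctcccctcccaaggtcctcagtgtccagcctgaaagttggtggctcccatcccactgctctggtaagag
The Slc1a4 match began 4 bases before the start, the Slc7a7 matches 141 and 1 bases before it. The Slc30a1 matches began 43 bases before and 30 bases after the start, and the Slc6a12 match 75 bases before it. Slc6a12 and Slc7a7 have 5 windows each in the table, of which the 1 with the most matches is shown. Only 2 of the 5 Slc7a7 windows and 1 of the 5 Slc6a12 windows held a match to the element named.

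Macrophages and fibroblasts held many solute carrier RNAs at different levels. All macrophage libraries lay above all fibroblast libraries for 34 members, and below them for 21, with 108 overlapping. Over all 11447 genes, 24.8% were separated in this way, 11.3% with macrophages higher and 13.5% with fibroblasts higher. The cell types were counted in separate tables, so the levels are set side by side in CPM without a test, and 3′ counts do not scale with transcript length. Amino acid carriers gave 11 of the 34 macrophage-high members and 4 of the 21 fibroblast-high ones.

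In macrophages the taurine carrier Slc6a6 stood at a mean of 838 CPM against 137 CPM in fibroblasts. Slc15a3, an endolysosomal carrier of histidine and peptides, stood at 173 against 5.09 CPM, and its relative Slc15a4 at 164 against 44.3 CPM. Slc7a8, a neutral amino acid exchanger that pairs with the heavy chain Slc3a2, stood at 121 against 4.08 CPM. The heavy chain itself was at similar means of 349 and 343 CPM, with overlapping libraries. In fibroblasts the light chain Slc7a5, which brings in large neutral amino acids with Slc3a2, stood at 56.7 CPM against 3.59 CPM in macrophages. The glycine carrier Slc6a9 (71.5 against 1.66 CPM), the glutamate carrier Slc1a6 (47.6 against 0.569 CPM) and the glutamine carrier Slc1a5 (155 against 34.8 CPM) were likewise fibroblast-high. Slc7a7 (163 against 26.2 CPM) and Slc7a8 were macrophage-high and Slc7a5 fibroblast-high within a single family.

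Among sugar carriers the lysosomal hexose carrier Slc2a6 (187 against 6.96 CPM) and the urate carrier Slc2a9 (22.8 against 2.12 CPM) were macrophage-high, and Slc50a1 was fibroblast-high at 122 against 56.7 CPM. The monocarboxylate carrier Slc16a6 reached 28.8 CPM in macrophages and 0.596 CPM in fibroblasts. The zinc carriers of the secretory pathway Slc39a7 (262 against 156 CPM) and Slc39a13 (217 against 63.5 CPM) were fibroblast-high. The purine nucleobase carrier Slc43a3 stood at 173 CPM in fibroblasts and 29.9 CPM in macrophages. Of the mitochondrial carriers, the phosphate carrier Slc25a3 had the highest mean in macrophages (1422 against 791 CPM) and the ADP/ATP exchanger Slc25a4 in fibroblasts (977 against 479 CPM). Neither passed the test in any comparison of co-cultured with day 0 macrophages (adjusted p of 0.258 to 0.778).

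**Figure D1:**
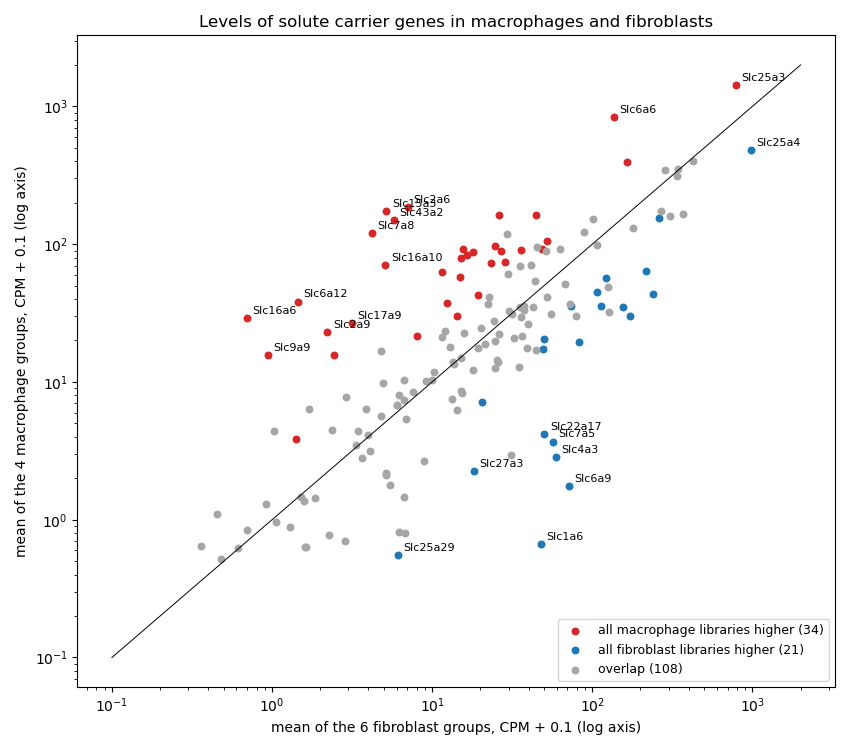
Mean CPM + 0.1 of the 163 genes over the 6 fibroblast groups (horizontal, log axis) and the 4 macrophage groups (vertical, log axis), with the line of equal level. Red points are the 34 members higher in every macrophage library, blue points the 21 higher in every fibroblast library and grey points the 108 that overlap; Slc16a6 and Slc15a3 lie far above the line and Slc1a6 and Slc6a9 far below it.

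Against day 0, co-cultured macrophages held less RNA of the osmolyte carriers Slc6a12 and Slc5a3 and of the glucose carrier Slc2a3, and more of the metal importers Slc39a14, Slc39a8, Slc39a4 and Slc31a1, with all 3 fibroblast partners. With fat fibroblasts 45 of 145 members tested were called by edgeR's quasi-likelihood test (26 higher, 19 lower), against 30.2% of all genes (15.8% higher, 14.4% lower). With lung fibroblasts 53 were called (33 higher, 20 lower), against 27.8% of all genes (14.6% higher, 13.2% lower). With mammary fibroblasts 46 were called (27 higher, 19 lower), against 26.1% of all genes (14.4% higher, 11.8% lower). The median change over the members tested was 0.04, 0.05 and -0.02 on the log2 scale, beside -0.01 over all genes in each. A further 18 members were too low to be tested. The summed level of all members was 10337 CPM at day 0 and 10353, 10738 and 10141 CPM with fat, lung and mammary partners.

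The largest falls seen with every partner were in 2 carriers of small organic osmolytes, of which Slc5a3 was sorted among the sugar carriers. Slc6a12, the betaine and GABA carrier, measured 92.4, 139, 95.2 and 91.8 CPM in the day 0 libraries. It measured 10.5 to 23.4 CPM with fat, 11.7 to 19.7 CPM with lung and 11.9 to 19.4 CPM with mammary fibroblasts. All 12 co-cultured libraries lay far below all 4 controls. The log2 change was -2.60 ± 0.23 (SE), -2.80 ± 0.23 and -2.70 ± 0.23, with adjusted p of 9.11e-08, 5.51e-08 and 6.07e-08. Slc5a3, the sodium-coupled myo-inositol carrier, went from 13.9, 23.1, 23.8 and 17.8 CPM at day 0 to 3.43 to 5.18, 2.47 to 6.89 and 2.34 to 3.51 CPM. Again no co-cultured library reached the controls, with log2 changes of -2.28 ± 0.27, -2.03 ± 0.27 and -2.61 ± 0.27 and adjusted p of 2.17e-06, 7.22e-06 and 4.85e-07. The 3′ end of Slc5a3 lies within the gene Mrps6 on the same strand, so their reads may be mixed. Mrps6, a mitochondrial ribosomal protein gene, itself fell from 220 ± 31.2 CPM (SD, n = 4) to 81.6 ± 5.15, 114 ± 11 and 91.1 ± 17.5 CPM. The taurine carrier Slc6a6, also an osmolyte carrier, was called with fat and mammary partners (954 ± 88.7 to 772 ± 42 and 776 ± 46.8 CPM, adjusted p = 0.0231 and 0.0296) and not with lung (log2 change -0.17 ± 0.10, adjusted p = 0.225). Its calls were lost without fat replicate 1 (adjusted p = 0.0621) or mammary replicate 3 (0.0755), among others.

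**Figure D2:**
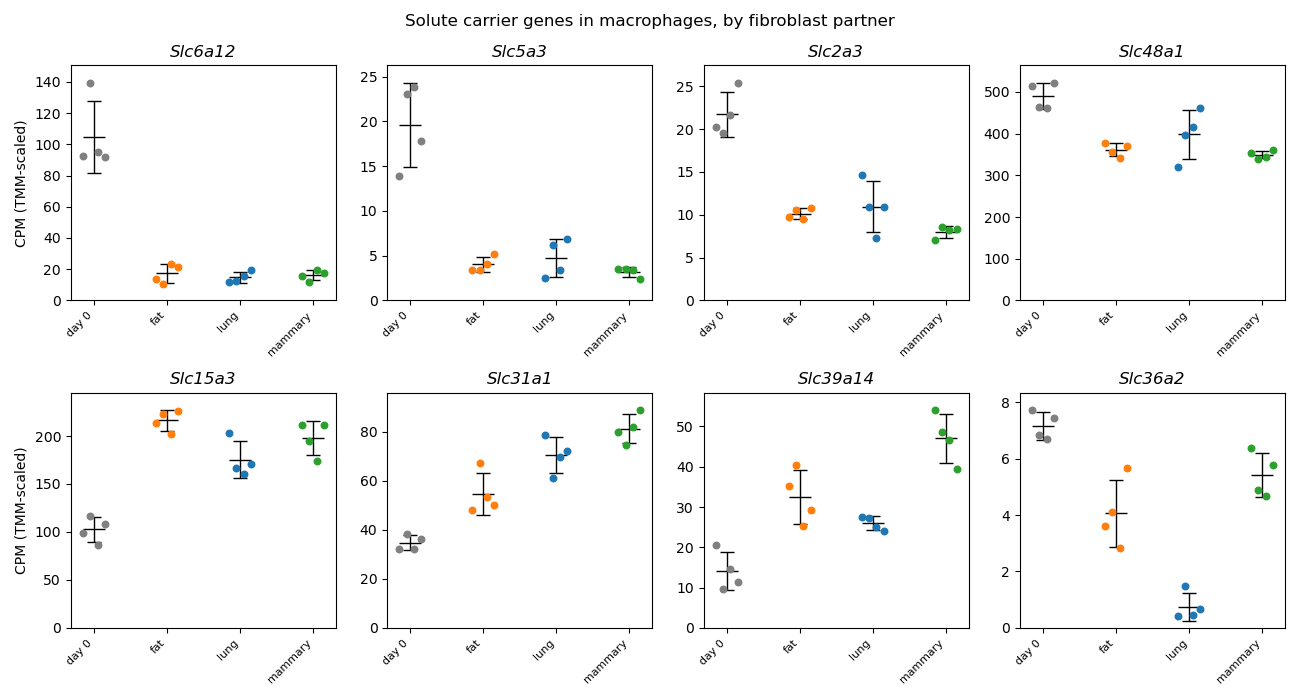
CPM (linear axes from 0) of 8 solute carrier genes in each macrophage library, for day 0 and for macrophages kept with fat, lung or mammary fibroblasts; points are libraries, and the bars give the mean and SD of 4 libraries. Slc6a12, Slc5a3 and Slc2a3 are lower and Slc15a3, Slc31a1 and Slc39a14 higher in every co-cultured library than at day 0, and Slc36a2 is lowest with lung fibroblasts.

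Amino acid carriers moved in both directions, with 14 of 27 tested members called with fat (7 higher, 7 lower), 14 with lung (8 and 6) and 12 with mammary fibroblasts (7 and 5). That was 51.9%, 51.9% and 44.4%, against 30.2%, 27.8% and 26.1% of all genes. Slc15a3 measured 86.6 to 117 CPM at day 0 and 160 to 226 CPM in the 12 co-cultured libraries, without overlap. Its log2 change was 1.07 ± 0.11, 0.77 ± 0.11 and 0.95 ± 0.11, with adjusted p of 4.13e-07, 2.56e-05 and 2.20e-06. Slc7a7, which exports cationic amino acids together with Slc3a2, went from 87.5 to 120 CPM up to 165 to 203 CPM, again without overlap (adjusted p of 1.19e-05, 4.85e-06 and 8.82e-06). The Slc7a7 promoter window shown above, picked as the 1 with the most, held 2 matches to the amino acid response element. Of its 5 windows, 2 held any match. Slc7a4, a cationic carrier relative of unsettled substrate that was named after its values were seen, rose from a mean of 8.28 CPM to 21.5, 17 and 19.9 CPM. The glutamine carrier relative Slc38a6 rose 1.63, 1.63 and 1.52-fold, and the creatine carrier Slc6a8 rose 1.37, 1.51 and 1.31-fold. Slc43a2, a facilitative carrier of large neutral amino acids, rose 1.38, 1.42 and 1.48-fold, with libraries overlapping day 0. It lost its call without replicate 4 of the co-culture in each case (adjusted p of 0.159, 0.0902 and 0.0735), among others, and Slc6a8 with mammary partners without day 0 replicate 4 (0.0663), among others. Among carriers that fell, the aromatic amino acid carrier Slc16a10 went from 73.1 to 113 CPM at day 0 to 53.4 to 72.3 CPM in co-culture, a separation of under 1 CPM. The glutamine carrier Slc1a5 went from a mean of 44.9 CPM to 31.4, 31.4 and 31.5 CPM with overlapping libraries (adjusted p of 0.0425, 0.0439 and 0.0485), and lost its call in each comparison in 5 of 13 alternatives, among them without day 0 replicate 1 (adjusted p of 0.184, 0.193 and 0.207) and without day 0 replicate 4 (0.116, 0.119 and 0.131). Slc3a2 passed in none of the comparisons (adjusted p of 0.173 to 0.960).

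Sugar carriers also split. The high-affinity glucose carrier Slc2a3 measured 20.3, 19.5, 21.7 and 25.4 CPM at day 0. With fat fibroblasts it measured 9.47 to 10.8 CPM, with lung 7.26 to 14.6 CPM and with mammary 7.01 to 8.58 CPM. Every co-cultured library was below every control, and the log2 change was -1.10 ± 0.17, -0.99 ± 0.17 and -1.44 ± 0.18 (adjusted p of 6.66e-05, 0.000215 and 3.38e-06). In the opposite direction, the intracellular hexose carrier Slc2a8 rose from 50.2 to 67.3 CPM up to 80.1 to 119 CPM, and Slc37a4, which carries glucose-6-phosphate into the endoplasmic reticulum, rose 1.49, 1.56 and 1.45-fold. Slc2a6 rose with fat (141 ± 8.73 to 255 ± 34 CPM, adjusted p = 5.65e-06) and lung partners (187 ± 6.95 CPM, adjusted p = 0.00797), while with mammary partners it stood at 166 ± 17.5 CPM (adjusted p = 0.122). Slc2a9 was called with mammary partners (log2 change 0.34 ± 0.12, adjusted p = 0.0457). It lost that call in 9 of 13 alternatives (adjusted p = 0.124 without mammary replicate 4), and Slc37a4 lost its own with fat partners without fat replicate 1 (0.0504) and with mammary partners without day 0 replicate 3 (0.0662).

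Metal carriers were called in 7, 10 and 8 of 19 members with fat, lung and mammary partners, of which 5, 8 and 6 rose. The shares called were 36.8%, 52.6% and 42.1%, against 30.2%, 27.8% and 26.1% of all genes. Slc39a14, an importer of zinc, iron and manganese, measured 20.6, 9.75, 14.6 and 11.4 CPM at day 0. It measured 25.3 to 40.5 CPM with fat, 24 to 27.5 CPM with lung and 39.3 to 54 CPM with mammary fibroblasts. No co-cultured library overlapped day 0, and the log2 change was 1.19 ± 0.19, 0.85 ± 0.19 and 1.72 ± 0.19 (adjusted p of 8.49e-05, 0.00236 and 9.41e-07). Its close relative Slc39a8 rose from 13.3 to 23.4 CPM up to 27.8 to 48.1 CPM, without overlap. The gut zinc importer Slc39a4, at 0.65 to 2.92 CPM at day 0, reached 4.14 to 17.2 CPM. Slc39a14 with mammary and Slc39a8 and Slc39a4 with lung partners are partner-rich. With the estimated fibroblast RNA subtracted, Slc39a14 still differed by 1.68 on the log2 scale with mammary partners (adjusted p = 1.99e-06) and Slc39a8 by 1.31 with lung partners (adjusted p = 4.91e-06).

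The copper importer Slc31a1 measured 32.1 to 38.4 CPM at day 0 and rose to 54.6 ± 8.62 CPM with fat, 70.4 ± 7.27 CPM with lung and 81.2 ± 5.86 CPM with mammary fibroblasts (adjusted p of 0.000398, 2.69e-06 and 2.59e-07). All 12 co-cultured libraries were above all controls. The mitochondrial zinc carrier Slc30a9 rose 1.65, 1.56 and 1.29-fold. The zinc exporter of the plasma membrane, Slc30a1, fell from 17 to 22.1 CPM down to 8.18 to 15.6 CPM, with log2 changes of -0.93 ± 0.18, -0.60 ± 0.17 and -0.51 ± 0.17 (adjusted p of 0.000428, 0.0135 and 0.0326). Its promoter window held 2 matches to the metal response element, which 51% of all windows also hold. The zinc importer Slc39a6 fell as well, to 0.574, 0.620 and 0.596 of its day 0 level, with overlap in lung and mammary libraries. The call for Slc30a1 was lost without lung replicate 4 (adjusted p = 0.0595) and, for mammary partners, without day 0 replicate 3 (0.0968) among others, and that for Slc39a6 with lung partners without day 0 replicate 1 (0.0636) among others.

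Among 22 ion carriers tested, 4 passed with fat partners, 6 with lung and 5 with mammary. These shares of 18.2%, 27.3% and 22.7% lay beside 30.2%, 27.8% and 26.1% of all genes. The ion carriers that passed all rose but the potassium-chloride cotransporter Slc12a4 with mammary partners (49.4 ± 5.34 to 38.1 ± 3.67 CPM). The anion carrier Slc26a11 went from 44.2 to 60.5 CPM up to 74.7 to 110 CPM without overlap, with log2 changes of 0.86 ± 0.12, 0.96 ± 0.12 and 0.69 ± 0.12. The endosomal sodium/proton exchanger Slc9a9 rose 1.99, 2.48 and 1.88-fold. The phosphate importer Slc20a1 rose with fat (81.3 ± 13.6 to 155 ± 27 CPM) and lung partners (144 ± 14.8 CPM), and with mammary partners stood at 96.5 ± 8.40 CPM (adjusted p = 0.203). The call for Slc12a4 against day 0 was lost without mammary replicate 1 (adjusted p = 0.0793) among others.

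Carriers of vitamins and cofactors that passed were all lower, 3 of 9 tested with fat and 4 of 9 each with lung and mammary partners. Of all genes, 14.4%, 13.2% and 11.8% were called lower. The reduced folate carrier Slc19a1 went from 49.3 ± 7.87 to 28.2 ± 1.69, 33.5 ± 2.41 and 35.7 ± 3.13 CPM. The vitamin C carrier Slc23a2 fell to 0.680, 0.722 and 0.731 of day 0. The heme carrier Slc48a1, which returns heme from the phagolysosome to the cytosol, measured 460 to 520 CPM at day 0 and 320 to 462 CPM in co-culture, where only the fat and mammary libraries were clear of the controls. Its adjusted p was 0.00327, 0.0391 and 0.00149, and with lung partners it was 0.12 without lung replicate 1 and 0.0986 without day 0 replicate 1, among 5 of 13 alternatives that lost the call. The choline carrier Slc44a1 was called with lung and mammary partners (18.3 ± 1.48 to 11.7 ± 1.16 and 12.2 ± 1.65 CPM) and not with fat (14.9 ± 2.61 CPM, adjusted p = 0.168). Monocarboxylate carrier Slc16a6 rose with fat (14.6 ± 2.45 to 34.8 ± 18 CPM) and mammary partners (42.5 ± 9.73 CPM), and with lung stood at 23.4 CPM (adjusted p = 0.0818).

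Mitochondrial carriers, the largest class, were called in 6 of 33 tested members with fat (3 higher), 8 with lung (3 higher) and 6 with mammary partners (3 higher). The shares of 18.2%, 24.2% and 18.2% were below the 30.2%, 27.8% and 26.1% of all genes. The citrate carrier Slc25a1, which supplies cytosolic acetyl groups for lipid synthesis, rose from 115 ± 23.7 to 162 ± 15.9, 184 ± 17.9 and 180 ± 30.4 CPM. The aspartate/glutamate exchanger Slc25a13 fell from 29 ± 6.70 to 20 ± 2.56, 20 ± 2.06 and 17.1 ± 1.69 CPM. Slc25a23, an ATP-magnesium/phosphate carrier, passed with fat partners (17.2 ± 5.36 to 40.8 ± 10.5 CPM, adjusted p = 0.0395) and is partner-rich there. It kept the call with the estimated fibroblast RNA subtracted (adjusted p = 0.0456) and lost it in 6 of 13 alternatives (0.115 without day 0 replicate 1). Without day 0 replicate 3 the adjusted p was 0.0502 for Slc25a1 with fat partners and 0.0573 and 0.0578 for Slc25a13 with fat and lung partners. Of the remaining classes, the vesicular nucleotide carrier Slc17a9 rose 1.58, 1.86 and 1.59-fold. The nucleobase carrier Slc43a3 fell with fat and lung partners (log2 changes of -0.49 ± 0.18 and -0.61 ± 0.18), with overlapping libraries. It is partner-rich with lung partners, and without day 0 replicate 1 its adjusted p was 0.145 and 0.0619. Slc22a17, a lipocalin receptor, went from 1.64 ± 0.96 to 5.35 ± 0.673, 4.86 ± 0.756 and 4.42 ± 1.75 CPM and is partner-rich with each partner.

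**Figure D3:**
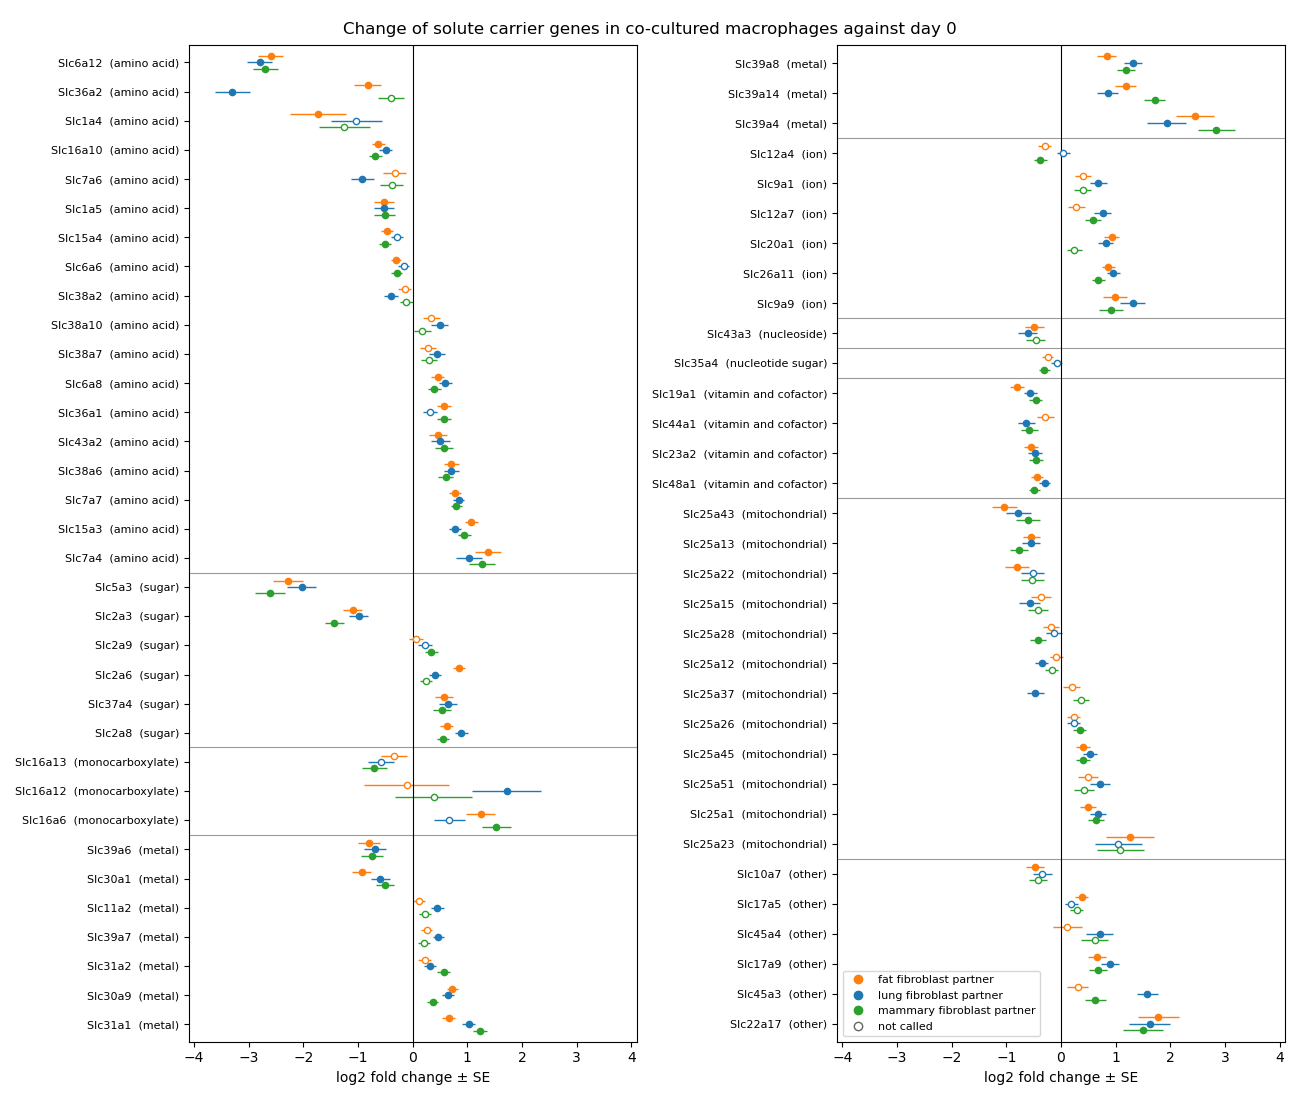
Log2 fold change with its SE (horizontal axis) of members called in at least 1 comparison of co-cultured with day 0 macrophages, 1 of them left out, by fibroblast partner (orange fat, blue lung, green mammary), grouped by substrate class; open points were not called. Slc6a12 and Slc5a3 lie furthest to the left with all partners, Slc36a2 with lung only, and Slc39a4 furthest to the right.

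Few members differed between fibroblast partners. Between macrophages of fat and lung co-culture 5 were called (4 higher and 1 lower with fat), against 3.1% of all genes (2.06% higher, 1.04% lower). Between fat and mammary 3 were called (2 higher, 1 lower), against 2.72% of all genes (1.67% higher, 1.05% lower), and between lung and mammary 7 (3 higher, 4 lower), against 5.6% of all genes (2.45% higher, 3.16% lower). The clearest was Slc36a2, a proton-coupled carrier of glycine and proline, which was named after its values were seen since it lay under 10 CPM. It measured 6.68 to 7.72 CPM at day 0 and 4.68 to 6.37 CPM with mammary fibroblasts. It measured 2.84 to 5.65 CPM with fat and 0.411, 1.48, 0.454 and 0.673 CPM with lung fibroblasts. All lung libraries were below all others, with adjusted p of 0.000152 against fat and 1.18e-05 against mammary partners. The lung values are near the level of 3 counts in a library. Slc45a3, a sugar carrier relative known from prostate, was instead highest with lung partners. It stood at 18.2 ± 2.62 CPM with lung against 7.45 ± 1.37 with fat and 9.36 ± 0.678 CPM with mammary partners (adjusted p of 0.000181 and 0.00198).

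The mitochondrial iron importer Slc25a37 and the cationic amino acid carrier Slc7a2 were also lowest with lung partners. Slc25a37 stood at 25 ± 5.94, 15.8 ± 1.05 and 28.1 ± 3.53 CPM with fat, lung and mammary partners, and Slc7a2 at 15.9 ± 2.4, 7.63 ± 2.21 and 14.3 ± 5.07 CPM. Slc2a6 was highest with fat partners (adjusted p = 0.0244 against lung and 0.00273 against mammary). Slc20a1 was lowest with mammary partners (adjusted p = 0.00705 against fat and 0.0127 against lung). Slc31a1 was higher with mammary than fat partners (adjusted p = 0.0107), and Slc39a14 higher with mammary than lung partners (adjusted p = 0.00559). Slc12a4 was 1.33-fold higher with lung than mammary partners (adjusted p = 0.046), a call lost in 8 of 12 alternatives (adjusted p up to 0.126, without mammary replicate 1). Slc2a6 lost its call between fat and lung in 7 of 12, without any of fat replicates 1, 3 and 4 or of the 4 lung replicates (adjusted p of 0.0581 to 0.0997). Slc7a2 lost its own in 3 of 12 for fat against lung (up to 0.0721, without lung replicate 4) and 3 of 12 for lung against mammary (up to 0.114, without lung replicate 4). Slc25a37 lost that between fat and lung without fat replicate 3 (0.0941) or lung replicates 1 and 3 (0.0579 and 0.0525). Slc31a1 lost its call without fat replicate 1 or 4 (0.0579 and 0.0539), and Slc20a1 between lung and mammary without lung replicate 2 (0.0503). The calls for Slc36a2, Slc45a3 and Slc39a14 between partners held in every alternative. The fat to lung count was 3 without fat replicate 3, lung replicate 1 or lung replicate 4, and 2 without lung replicate 3.

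In fibroblasts, few solute carriers passed between co-culture and mono-culture. They numbered 3 of 153 tested members for fat (all lower), against 0.201% of all genes (0.0403% higher, 0.161% lower). For lung there were 5 (4 higher, 1 lower), against 1.31% of all genes (1.17% higher, 0.145% lower), and for mammary 11 (7 higher, 4 lower), against 3.65% of all genes (2.36% higher, 1.29% lower). Another 10 members were too low to be tested. With the replicate number as a block, where same-numbered mammary libraries deviated together, 13 mammary members passed, the same 11 among them.

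The creatine carrier Slc6a8 measured 369 and 396 CPM in fat mono-cultures and 125, 159 and 171 CPM in co-cultures. In mammary mono-cultures it ran from 169 to 270 CPM with a median of 186 CPM, and in co-cultures from 87.5 to 137 CPM with 120 CPM as the median. The co-cultures lay wholly below the mono-cultures in both organs. The log2 change was -1.33 ± 0.21 for fat (adjusted p = 0.0189) and -0.82 ± 0.15 for mammary (adjusted p = 0.00372). In lung it was 102, 124 and 135 CPM alone and 101, 99.4 and 87.6 CPM in co-culture (log2 change -0.33 ± 0.19, adjusted p = 0.683). Slc38a7, a lysosomal exporter of glutamine, measured 108 and 110 CPM in fat mono-cultures against 53.7, 41.4 and 57.4 CPM in co-cultures. It went from 45.3 to 69.3 CPM down to 26.7 to 42.3 CPM in mammary fibroblasts, without overlap in either organ (adjusted p of 0.0295 and 0.00552). In lung the difference was -0.19 ± 0.18 (adjusted p = 0.907). The fat calls rest on 2 mono-cultures: 1 call was left without fat co-culture replicate 3 and 0 without any other single fat library. Slc6a8 and Slc38a7 stayed called in mammary fibroblasts under every alternative tried. Endothelial markers were also lower in fat co-cultures (38.5 to 89.6 CPM) than in fat mono-cultures (132 to 211 CPM), and mesothelial markers went from 1268 and 2171 CPM to 759 to 1644 CPM with overlap. Mesothelial markers were higher in mammary co-cultures (57.7 to 138 CPM) than in mono-cultures (30.7 to 47.6 CPM), and lower in lung co-cultures (1492 to 1796 CPM) than in mono-cultures (1834 to 2519 CPM). Their part in the calls of each organ, those of Slc18a1 included, was not tested.

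The vesicular monoamine carrier Slc18a1, named after its values were seen, stood at 4.95 and 3.07 CPM in fat and 4.06, 3.51 and 3.69 CPM in lung mono-cultures. It fell to at most 0.452 and 0.733 CPM in co-culture (adjusted p of 0.0295 and 0.0204), which is near the level of 3 counts. In mammary fibroblasts it was at most 0.435 CPM in either culture. For fat, the Slc18a1 call was lost in 6 of 10 alternatives (adjusted p up to 0.303, with the replicate block). For lung it was lost in 5 of 11 (up to 0.105, without co-culture replicate 3). In lung fibroblasts the sodium/proton exchanger Slc9a5 rose from 8.78 ± 1.5 to 17.1 ± 2.22 CPM (adjusted p = 0.0269), a call lost in 5 of 11 alternatives (up to 0.166, without mono-culture replicate 1). Slc1a4, a carrier of alanine, serine and cysteine with the response element shown above, rose from 9.40, 9.96 and 6.21 CPM to 13.4, 18.3 and 16.1 CPM without overlap (adjusted p = 0.0477). The lung count was 1 to 3 without any single lung library. It was 1 without mono-culture replicate 3, whose tissue label differs, and without mono-culture replicate 1 or co-culture replicate 3. It was 2 without co-culture replicate 1 or 2, and 3 without mono-culture replicate 2. Slc1a4 lost its call in 6 of 11 alternatives, with an adjusted p of 0.271 without mono-culture replicate 3.

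In mammary fibroblasts Slc43a3 rose from 81 to 105 CPM up to 131 to 171 CPM, without overlap (adjusted p = 0.0110). The fatty acid carrier relative Slc27a3 rose from 27.6 ± 7.67 to 45.5 ± 3.22 CPM, the lipocalin receptor Slc22a17 from 47.6 ± 6.27 to 74.4 ± 8.40 CPM and the glutamate carrier Slc1a6 from 11 ± 2.59 to 22.6 ± 4.67 CPM. The mitochondrial pyrimidine nucleotide carrier Slc25a33 fell from 31.2 ± 4.58 to 20.7 ± 2.78 CPM, and the fatty acid carrier Slc27a6 from 4.35 ± 1.34 to 1.41 ± 0.50 CPM. Slc22a17 lost its call without mono-culture replicate 1 (adjusted p = 0.0535), mono-culture replicate 5 (0.0681) or co-culture replicate 1 (0.0506). Slc1a6 lost it without mono-culture replicate 2 (0.0545), mono-culture replicate 4 (0.0627) or co-culture replicate 2 (0.0639). Slc27a3 lost it without mono-culture replicate 1 (0.0510) and Slc27a6 without mono-culture replicate 3 (0.0562), while Slc43a3 and Slc25a33 were called in every alternative. The other 3 mammary calls and 2 of the lung calls were partner-rich members that macrophages hold at high level: Slc15a3 in both organs, Slc2a6 in lung, and Slc7a7 and Slc43a2 in mammary fibroblasts. Slc15a3, at 0.194 to 0.641 CPM in lung mono-cultures, reached 7.27 to 8.44 CPM in co-culture, beside 160 to 204 CPM in the macrophages of the same co-cultures. After subtraction of the estimated macrophage RNA, the calls for Slc2a6 (adjusted p = 0.913), Slc43a2 (0.154) and Slc7a7 (0.0559) were lost, while Slc15a3 stayed called in lung (0.0181) and mammary fibroblasts (0.0489).

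No member's response to co-culture differed between organs in edgeR's interaction test, where 0 of 153 passed for each of lung against mammary, fat against mammary and fat against lung. Of all genes, 0.0966% passed for lung against mammary (0.0886% higher, 0.00805% lower), 0.0242% for fat against mammary (0% higher, 0.0242% lower) and 0% for fat against lung. At an unadjusted p under 0.05 there were 11, 17 and 12 members (7.19%, 11.1% and 7.84%), beside 6.06%, 7.28% and 6.55% of all genes. DESeq2 called 2 members for lung against mammary (Slc1a4 among them, adjusted p = 0.0484), 1 for fat against mammary (Slc43a3, 0.0319) and 1 for fat against lung (Slc39a13, 0.0316). The different calls for Slc6a8 and Slc38a7 by organ therefore stand without a difference shown between organs.

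**Figure D4:**
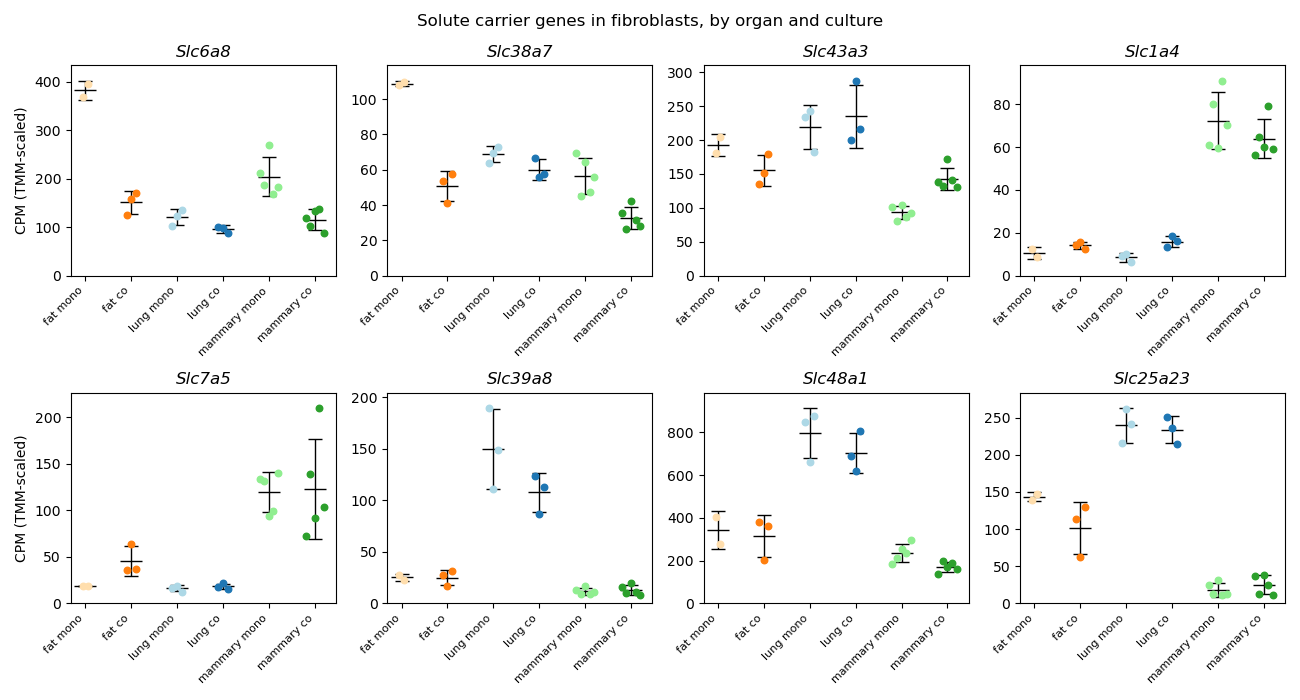
CPM (linear axes from 0) of 8 solute carrier genes in each fibroblast library, by organ and culture (mono, fibroblasts alone; co, with macrophages); points are libraries and bars the mean and SD of 2 to 5 libraries. Slc6a8 and Slc38a7 are lower in fat and mammary co-cultures, Slc1a4 and Slc7a5 are highest in mammary fibroblasts, and Slc39a8, Slc48a1 and Slc25a23 are highest in lung fibroblasts.

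Fibroblasts of different organs differed in many solute carriers. In mono-culture 80 of 153 members were called between lung and mammary fibroblasts (38 higher and 42 lower in lung), against 40.3% of all genes (21.2% higher, 19.1% lower). The share was 66.7% of sugar, 63.2% of metal, 62.1% of amino acid and 60% of vitamin and cofactor carriers tested. The remaining classes ran from 38.2% (mitochondrial) to 50%. Fat and mammary fibroblasts differed in 51 (22 higher and 29 lower in fat), against 23.3% of all genes (14.1% higher, 9.2% lower), and fat and lung in 15 (10 and 5), against 9.28% of all genes (5.48% higher, 3.8% lower). In co-culture 61 were called for lung against mammary (31 and 30), against 32.2% of all genes (16.9% higher, 15.3% lower). Among them were 17 of 29 amino acid and 9 of 19 metal carriers, and 0 of 9 sugar carriers. In the interaction test of lung against mammary 0 of 9 sugar carriers passed. Their organ differences in mono-culture and co-culture are therefore not shown to differ. Between fat and mammary co-cultures 53 were called (22 and 31), against 25.4% of all genes (13.3% higher, 12% lower). Between fat and lung co-cultures 17 were called (9 and 8), against 9.41% of all genes (4.26% higher, 5.15% lower). The organ comparisons of fat rest on few libraries: without 1 of them the fat to lung count was 5 to 13 in mono-culture and 6 to 10 in co-culture, and the fat to mammary count in mono-culture was 24 without fat replicate 1. Mesothelial, epithelial and, in mono-culture, endothelial markers, given above, were high in the same fat and lung libraries that are compared here with mammary ones, with endothelial markers highest in fat. Their part in these differences was not tested. Without the lung mono-culture library whose tissue label differs, the lung to mammary count was 69.

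Amino acid carriers were lower in lung than in mammary mono-cultures in 14 of 29 tested members and higher in 4. Of all genes, 19.1% were called lower and 21.2% higher. Slc7a5 measured 18.6 and 18.2 CPM in fat and 16.9, 19 and 12.4 CPM in lung mono-cultures. In the mammary ones it ran from 94.1 to 140 CPM with a median of 132 CPM. No mammary library overlapped the other organs, and the level was 7.42-fold that of lung (adjusted p = 8.46e-07) and 6.48-fold that of fat (adjusted p = 3.03e-05). Its heavy chain Slc3a2 stood at 228 ± 7.75, 256 and 568 ± 176 CPM in fat, lung and mammary mono-cultures (adjusted p = 0.00351 and 0.00154 against mammary). Slc1a4 measured 6.21 to 12.6 CPM in fat and lung against 59.3 to 90.8 CPM in mammary mono-cultures, an 8.45-fold difference from lung (adjusted p = 3.14e-09). Slc1a5, Slc7a2 and Slc6a9 were also higher in mammary than lung mono-cultures, by 2.21, 5.87 and 2.60-fold. In co-culture these carriers were again higher in mammary than lung fibroblasts, by 6.81-fold for Slc7a5, 2.38 for Slc3a2, 4.00 for Slc1a4, 1.84 for Slc1a5, 5.83 for Slc7a2 and 2.33 for Slc6a9. The glutamate carrier Slc1a6 went the other way, at 46.3 ± 13.3 CPM in lung and 37.3 ± 1.18 CPM in fat against 11 ± 2.59 CPM in mammary mono-cultures. The cystine/glutamate exchanger Slc7a11 stood at 1.23 ± 0.922, 3.79 ± 2.12 and 1.06 ± 0.702 CPM in fat, lung and mammary mono-cultures (adjusted p = 0.166 for lung against mammary). Slc6a8 was highest in fat, 3.17-fold above lung and 1.87-fold above mammary mono-cultures.

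Metal carriers separated the organs in opposite directions. Slc39a8 measured 189, 111 and 149 CPM in lung mono-cultures, 27.5 and 22.8 CPM in fat and 8.74 to 17.2 CPM in mammary ones. The organs did not overlap, and lung was 12.7-fold above mammary (adjusted p = 7.09e-09) and 5.94-fold above fat (adjusted p = 0.000144). Slc39a4 ran from 30.9 to 49.5 CPM in lung and from 3.07 to 6.83 CPM in fat, and was at most 0.894 CPM in mammary mono-cultures. Slc39a14 was highest in mammary fibroblasts, at 90.8 to 158 CPM against 29 to 43.6 CPM in fat and lung mono-cultures. The zinc importer Slc39a10 stood at 3.84 ± 1.09, 14.3 ± 5.97 and 2.42 ± 1.87 CPM in fat, lung and mammary mono-cultures (adjusted p = 0.0116 for lung against mammary). In co-culture Slc39a8 and Slc39a4 were 8.31-fold and 41.4-fold above mammary in lung, and Slc39a14 was 3.61-fold lower. Mammary Slc39a4 was near the level of 3 counts in mono-culture, so the size of its fold over mammary fibroblasts is uncertain.

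Among the other classes, the heme carrier Slc48a1 measured 850, 662 and 876 CPM in lung mono-cultures, 404 and 280 CPM in fat and 185 to 297 CPM in mammary ones. Lung was clear of the other organs, while fat and mammary did not pass (adjusted p = 0.105). Slc25a23 stood at 240 ± 23 CPM in lung, 143 ± 6.06 CPM in fat and 18.4 ± 9.30 CPM in mammary mono-cultures, with fat and lung not called apart (adjusted p = 0.395). The nucleoside carrier Slc29a1 ran from 37.6 to 97.1 CPM in mammary against 7.00 to 18.6 CPM in fat and lung mono-cultures. Slc43a3 was lower in mammary (93.3 ± 9.90 CPM) than in lung (220 ± 32.2 CPM) and fat mono-cultures (193 ± 16.9 CPM). The sodium/calcium exchanger Slc8a1 stood at 0.704 ± 0.454, 3.59 ± 1.81 and 0.395 ± 0.585 CPM in fat, lung and mammary mono-cultures. Its log2 difference between lung and mammary was 3.10 ± 0.78 (adjusted p = 0.00378). The mammary mean of Slc8a1 lay under the level of 3 counts in a library, so the size of that difference is uncertain. The phosphate importer Slc20a1 went the other way, at 17.3 ± 6.75 CPM in lung and 65.2 ± 9.81 CPM in mammary mono-cultures (adjusted p = 0.00039). Slc27a3 was 3.83-fold higher in mammary than lung. The riboflavin carrier Slc52a3, named after its values were seen, measured 5.34 to 7.82 CPM in mammary, 3.42 and 5.94 CPM in fat and at most 0.214 CPM in lung mono-cultures, the last under the level of 3 counts.

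**Figure D5:**
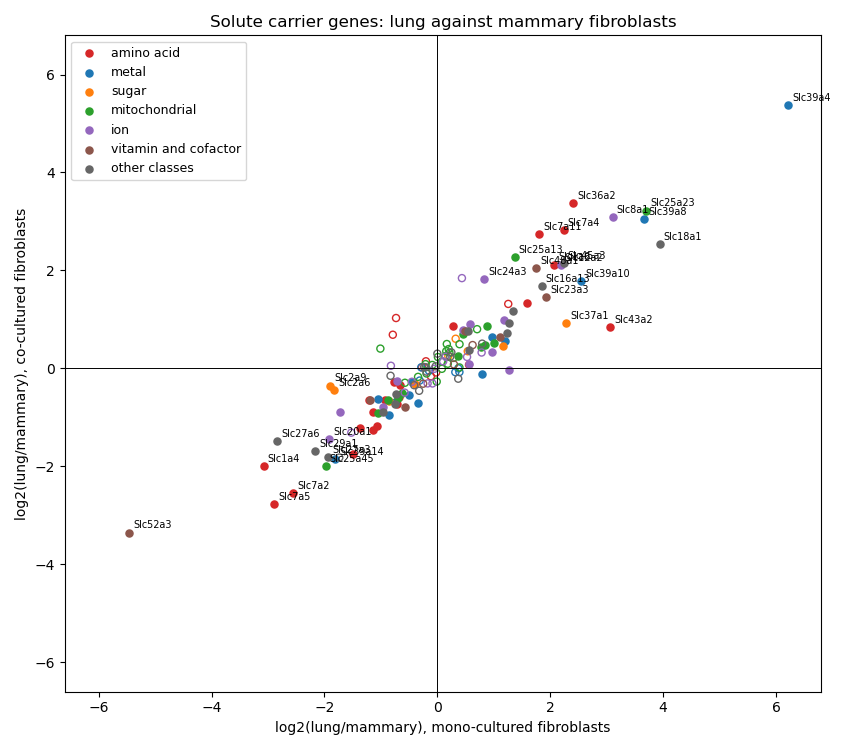
Log2 ratio of lung to mammary fibroblasts in mono-culture (horizontal) and co-culture (vertical) for the 153 members tested, coloured by substrate class, with small classes pooled; filled points were called in at least 1 of the comparisons. Slc39a4, Slc39a8 and Slc25a23 lie at the upper right and Slc7a5, Slc7a2, Slc1a4 and Slc52a3 at the lower left in both cultures.

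A list of 28 other transport genes held symbols outside the pattern used here, among them Slco genes, which are solute carriers of organic anions. In macrophages 23 were tested. With fat, lung and mammary partners 3, 4 and 4 were higher and 5, 5 and 4 lower. Of all genes, 15.8%, 14.6% and 14.4% were higher and 14.4%, 13.2% and 11.8% lower. The sideroflexin Sfxn5 rose from 10.4 CPM to 26.9, 28.4 and 26.2 CPM, and the pyrophosphate exporter Ank fell from 142 CPM to 76.8, 57.2 and 61 CPM. Of the Slco genes, Slco3a1 was called higher with every partner. Slco2b1 was called higher with fat and mammary partners, and Slco2a1 with lung and mammary partners. Slco4a1 was called lower with every partner. In fibroblasts 0, 2 and 0 of 25 rose and 2, 0 and 1 fell, in the order fat, lung and mammary. The 2 that rose in lung were Slco3a1 and Slco4a1. The lysosomal cystine exporter Ctns fell in fat (55.9 to 26.7 CPM). Of all genes, 0.0403%, 1.17% and 2.36% rose and 0.161%, 0.145% and 1.29% fell. Of the 163 solute carriers, 42 were called in none of the 18 comparisons, 95 in none of the macrophage comparisons with day 0 and 148 in none of the fibroblast comparisons with mono-culture (25.8%, 58.3% and 90.8%). Of the 11447 genes shared by both tables these shares were 35.8%, 64.8% and 95.8%. Those counts include members that were too low to be tested, 7 of them in both tables.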

How the data were processed

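The deposited raw counts per gene, 1 table per cell type, were used; per the submitters' processing notes reads were aligned with STAR 2.4.2a to mm10, and bcl2fastq and HTSeq are named, while for annotation, strandedness and any molecular identifiers the setting is not given in the sources used here. Members and lists were chosen with earlier results of these data known. The authors' counts of 10295 macrophage and 12421 fibroblast genes that passed filterByExpr (minimum count 10) were fitted with edgeR 4.0.16 in R 4.3.3, 1 coefficient per group, with TMM scaling, and tested with the robust quasi-likelihood F-test. A gene was called at a Benjamini-Hochberg adjusted p under 0.05 over all genes tested, and every adjusted p is from this test unless DESeq2 1.42.0 is named. A log2 fold change carries its SE, obtained from the change and its F value, and CPM its SD. Library totals of 3040103 to 7487355 counts limit precision; limits of 3 counts cover counting error only, and p-values measure the spread between libraries called repetitions. In 54 pairs of libraries within groups, chi-square per degree of freedom was 3.47 to 72.2, so none was treated as a duplicate. Fibroblast column 3 of fat mono-culture has no matching repetition number and was used as an unpaired library.

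Genes named were called members with at least 10 CPM in a group: per class the 2 higher and 2 lower with the smallest adjusted p in each co-culture comparison, the 5 higher and 5 lower between organs, and the 2 highest members of each class by cell type; the other members described, such as Slc7a4, Slc7a8, Slc1a5, Slc9a9, Slc15a4 and Slc2a9, were chosen after their values were seen. Partner RNA was estimated from marker rises over the control relative to the partner's level, and was subtracted in one alternative. Replicate numbers paired the mammary fibroblasts, whose same-numbered libraries deviated together (r of 0.293 to 0.555 in 5 pairs, log2 CPM with prior count 2). The test code was checked on simulated counts. The values of 1 member are not reported here, although it is in the counts of members. Alternatives were DESeq2, its size factors in edgeR, no filter, a replicate block, partner RNA subtracted, partner-rich members left out and each library left out. Opposite-strand genes overlap the last 500 bases of Slc15a3, Slc16a6, Slc19a1, Slc31a1, Slc48a1, Slc7a4, Slc7a5, Slc7a7, Slc6a9 and Slc39a13, among others; with the strand setting unknown their reads may be mixed.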

Additional observations from a re-analysis of the deposited data

Results flagged for a closer look

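Of 437 groups of 4 or 5 libraries tested for named members, 18 held a library that stood far from the others relative to the range of its group, and chance alone gives about 1 in 20. In replicate 2 of day 0 macrophages this was Slc6a12 at 139 CPM and Slc66a2 at 141 CPM. In replicate 4 of day 0 macrophages this was Slc16a13 at 14.9 CPM. In replicate 3 of day 0 macrophages this was Slc44a2 at 43.8 CPM. In replicate 2 of fat co-cultured macrophages this was Slc7a7 at 169 CPM, Slc19a1 at 25.6 CPM and Slc29a1 at 54.5 CPM. In replicate 1 of fat co-cultured macrophages this was Slc50a1 at 68.3 CPM. In replicate 1 of lung co-cultured macrophages this was Slc26a11 at 86.1 CPM, Slc2a8 at 101 CPM and Slc44a2 at 59.8 CPM. In replicate 1 of mammary co-cultured macrophages this was Slc39a6 at 39.2 CPM, Slc25a22 at 24.2 CPM and Slc29a3 at 74.6 CPM. In replicate 4 of mammary co-cultured macrophages this was Slc5a3 at 2.34 CPM. In replicate 3 of mammary co-cultured fibroblasts this was Slc43a3 at 171 CPM. In replicate 4 of mammary co-cultured fibroblasts this was Slc29a3 at 60.1 CPM. In replicate 1 of mammary mono-cultured fibroblasts this was Slc25a37 at 37.1 CPM. 

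The change from day 0 differed between fibroblast partners in 15 tests over 9 members, each by the contrast of co-cultured groups, in which the shared day 0 libraries cancel. For fat minus lung partners the log2 difference was 2.48 for Slc36a2, -1.28 for Slc45a3, 1.06 for Slc7a2, 0.66 for Slc25a37, and 0.44 for Slc2a6. For fat minus mammary partners the log2 difference was 0.62 for Slc2a6, 0.69 for Slc20a1, and -0.57 for Slc31a1. For lung minus mammary partners the log2 difference was -2.91 for Slc36a2, -0.83 for Slc25a37, 0.95 for Slc45a3, -0.86 for Slc39a14, 0.58 for Slc20a1, -0.92 for Slc7a2, and 0.41 for Slc12a4.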

How the results depend on the processing

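In macrophages the count of members called against day 0 stayed within 1.5 times under every alternative. Of the called members, 31 of 45 (fat), 35 of 53 (lung) and 31 of 46 (mammary) were called in every alternative that gave them an adjusted p. The alternative that leaves out partner-rich members is not part of these 3 counts. Leaving out 1 library gave 37 to 52, 41 to 55 and 38 to 49 calls. It gave 2 to 5 for fat against lung, 2 to 3 for fat against mammary and 5 to 8 for lung against mammary partners. Every called member of the co-culture comparisons and of those between macrophage partners kept its sign. In fibroblasts, leaving out 1 library gave 0 to 1 calls for fat co-culture, 1 to 3 for lung and 8 to 13 for mammary. Between organs it gave 5 to 13, 24 to 53 and 69 to 83 in mono-culture and 6 to 10, 38 to 57 and 49 to 64 in co-culture (fat to lung, fat to mammary, lung to mammary). The fat to mammary mono-culture count was 24 without fat replicate 1. Fat to lung mono-culture gave 5 without fat library 2, 9 without lung replicate 2 and 8 without lung replicate 3. Fat to lung co-culture gave 9, 6 and 10 without fat replicates 1, 2 and 3, and 6, 10 and 9 without lung replicates 1, 2 and 3. Fewer libraries are fitted in each of these. DESeq2 called 8 members for lung and 17 for mammary co-culture, and 2, 1 and 1 for the interactions (lung to mammary, fat to mammary, fat to lung), where leaving out any library in edgeR gave 0. Without partner-rich members the lung count was 3. The cause of the DESeq2 differences was not tested.

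With the replicate number as a block, fat gave 0 calls, from 1 shared number, and lung 8, where the pairing of numbers was not borne out (r of 0.0429 to 0.340, although 3 of 3 libraries correlated best with their own number). The block gave 13 calls in mammary fibroblasts and moved no macrophage count by over 1.5 times; macrophage numbers did not pair (r of -0.358 to 0.286). Levels of Slc18a1, Slc36a2, Slc39a4, Slc52a3 and Slc8a1 near 3 counts in a library cannot be ranked among themselves at this depth.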
